A study of Mus musculus with 4 samples.

Results

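10 collagen chains outside the fibril-forming family were followed across nuclei of the injured mouse brain at 21 days post-injury (dpi). They were Col6a1, Col6a2, Col6a3 and Col6a5 of type VI collagen, Col12a1 and Col14a1 of the fibril-associated collagens, Col15a1 and Col18a1 of the multiplexins, and Col13a1 and Col25a1 of the transmembrane collagens. The 10 genes were taken by name from the 33696 genes of the deposited matrices, and all 10 had a UMI (a unique molecular identifier, which counts 1 captured transcript) in each library. Only 6 of the 10 are type VI or fibril-associated chains by family, so the families are kept apart below. The Ensembl identifiers of the genes in that order are ENSMUSG00000001119, ENSMUSG00000020241, ENSMUSG00000048126, ENSMUSG00000091345, ENSMUSG00000032332, ENSMUSG00000022371, ENSMUSG00000028339, ENSMUSG00000001435, ENSMUSG00000058806 and ENSMUSG00000058897.

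Nuclei came from the lesion and from perilesional cortex, called parenchyma here, after photothrombotic injury, in which light activates a dye in cortical vessels and closes them. The control group is labelled WT, and the study's methods describe conditional-knockout controls as mostly tamoxifen-induced littermates without Cre or with 1 floxed allele. The other group carried Col1a2(creER), a tamoxifen-inducible Cre recombinase driven by a collagen I promoter active in fibroblasts and related stromal cells, with Cxcl12(flox), and is called Cxcl12-cKO. In each group 1 male and 1 female mouse, with no age in the labels, were pooled into 1 library of sorted DAPI-positive nuclei, with lesion and parenchyma tagged apart. There was thus no replicate library, no test between genotypes was made, and each difference below is between these 2 libraries as labelled.

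Type VI collagen is assembled from the chains of Col6a1 and Col6a2 with a longer chain such as that of Col6a3, and its beaded filaments link cells to the surrounding matrix. Col6a5 encodes an alternative long chain related to that of Col6a3. The fibril-associated collagens XII and XIV bind the surface of collagen I fibrils, collagens XV and XVIII are proteoglycans of basement membrane zones, and collagens XIII and XXV are anchored in the plasma membrane. In the brain these matrix genes are known mainly from meningeal and perivascular fibroblasts and from vessels. Collagen XXV is also made by neurons and is known from amyloid plaques.

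After filtering, 21743 of 23489 barcodes remained, 8095 lesional and 2877 parenchymal nuclei in the control library and 7933 and 2838 in the Cxcl12-cKO library. Median depth was 2962 and 2975 UMIs in lesional nuclei and 15915 and 16648 UMIs in parenchymal nuclei, so depth differed between regions much more than between libraries. Between 1 and 22 barcode sequences were shared by any pair of matrices from different libraries. UMIs of both sexes were found in 9.75% to 14.3% of nuclei per matrix. Fibroblast-like nuclei, the class of most interest, numbered 4151 in the control lesion and 4074 in the Cxcl12-cKO lesion, and all 6 fibroblast markers were higher in them than in the other lesional nuclei. The targeted gene went against its label: Cxcl12 was at 106 CPM (UMIs of the gene over all UMIs of the class, in the usual CPM scaling) in lesional fibroblast-like nuclei labelled control and at 215 CPM in those labelled Cxcl12-cKO. Which part of Cxcl12 is deleted was not stated, so these 3′ counts do not check the deletion. Intervals in brackets are exact 95% intervals that cover counting error only.

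The promoters of the type VI chains are shown because their transcripts were found in different proportions across nuclei, and those of Col6a5 and Col25a1 because these genes differed most between the libraries. Each window runs from 250 bases before to 50 bases after the start in RefSeq GRCm38.p6, an older build than the GRCm39 genome of the counts, 5′ to 3′ on the strand of the gene. Capitals mark any match, on either strand, to the TATA box TATAAA, the GC box GGGCGG, the AP-1 motif TGANTCA, the TEAD motif GGAATG or the E-box CACGTG. Col6a1 lies on chromosome 10 (chr10:76725995-76726294, minus strand), Col6a2 close by (chr10:76623355-76623654, minus strand), Col6a3 on chromosome 1 (chr1:90843922-90844221, minus strand), Col6a5 on chromosome 9 (chr9:105960594-105960893, minus strand) and Col25a1 on chromosome 3 (chr3:130180595-130180894, plus strand).
Col6a1: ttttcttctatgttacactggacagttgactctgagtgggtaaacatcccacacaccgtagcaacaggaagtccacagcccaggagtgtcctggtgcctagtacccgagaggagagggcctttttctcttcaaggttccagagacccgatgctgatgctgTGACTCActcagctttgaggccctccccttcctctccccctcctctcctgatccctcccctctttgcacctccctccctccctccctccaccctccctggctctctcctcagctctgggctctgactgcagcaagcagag
Col6a2: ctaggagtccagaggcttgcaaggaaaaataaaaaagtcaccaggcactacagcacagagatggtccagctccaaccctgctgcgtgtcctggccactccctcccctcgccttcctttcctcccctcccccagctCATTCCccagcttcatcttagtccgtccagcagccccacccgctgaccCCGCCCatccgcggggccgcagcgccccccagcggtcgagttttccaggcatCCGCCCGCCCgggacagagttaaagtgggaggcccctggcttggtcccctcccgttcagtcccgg
Col6a3: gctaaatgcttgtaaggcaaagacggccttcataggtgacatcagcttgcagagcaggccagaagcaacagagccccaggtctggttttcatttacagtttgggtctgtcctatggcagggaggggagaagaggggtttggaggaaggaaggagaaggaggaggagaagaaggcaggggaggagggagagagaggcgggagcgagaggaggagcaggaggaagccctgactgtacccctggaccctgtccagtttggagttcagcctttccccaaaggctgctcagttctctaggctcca
Col6a5: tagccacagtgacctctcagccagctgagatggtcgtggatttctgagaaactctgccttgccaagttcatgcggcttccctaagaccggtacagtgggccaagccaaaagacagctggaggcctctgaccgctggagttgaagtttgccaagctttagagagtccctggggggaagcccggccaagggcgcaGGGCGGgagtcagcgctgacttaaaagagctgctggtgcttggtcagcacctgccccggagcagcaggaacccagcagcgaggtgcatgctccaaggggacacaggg
Col25a1: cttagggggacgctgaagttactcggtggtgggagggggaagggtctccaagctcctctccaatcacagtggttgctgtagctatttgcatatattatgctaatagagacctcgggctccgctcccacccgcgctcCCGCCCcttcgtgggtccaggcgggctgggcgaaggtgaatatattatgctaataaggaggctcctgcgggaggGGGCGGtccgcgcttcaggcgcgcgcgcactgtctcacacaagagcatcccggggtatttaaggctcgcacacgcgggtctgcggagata
The Col6a1 window held 1 match to the AP-1 motif, at base 161, which 7.81% of 32851 promoters of this length hold. RefSeq has a second Col6a2 start (chr10:76623581-76623880, not printed), with the GC box at base 76 and no other match. The printed Col6a2 window held the GC box at bases 184, 236 and 240, the last pair overlapping, and the TEAD motif at base 136. The GC box was at base 194 in Col6a5 and at bases 137 and 211 in Col25a1, against 35.7% of all promoters with at least 1 such match, while 14.7% hold the TEAD motif. None of the 5 motifs was found in the Col6a3 window, and no window shown held the TATA box or the E-box, which are in 13.6% and 7.15% of promoters. A promoter entry was matched for 8 of the 10 genes.

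Across the lesion the 10 genes did not share a cell class. Among the 9 lesional classes with at least 80 nuclei in each library, Col6a1, Col6a5, Col14a1 and Col25a1 were highest in fibroblast-like nuclei in both libraries, or 4 of 10 genes where 4.61% of 17303 genes had this pattern. Col6a2, Col6a3, Col12a1 and Col13a1 were highest in osteoblast lineage-like nuclei, a class that carried the bone genes Bglap, Ibsp and Sp7. Col15a1 and Col18a1 were highest in endothelial-like nuclei. Fibroblast-like nuclei were 4151 of 8095 lesional nuclei in the control and 4074 of 7933 in the Cxcl12-cKO library. In the control lesion they held 44.3% of Col13a1 UMIs, and from 55.4% (Col6a3) to 84.1% (Col14a1) for the other genes. In the Cxcl12-cKO lesion they held from 62.6% (Col13a1) to 91.7% (Col6a5). The same share over all genes was not computed.

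**Figure D1:**
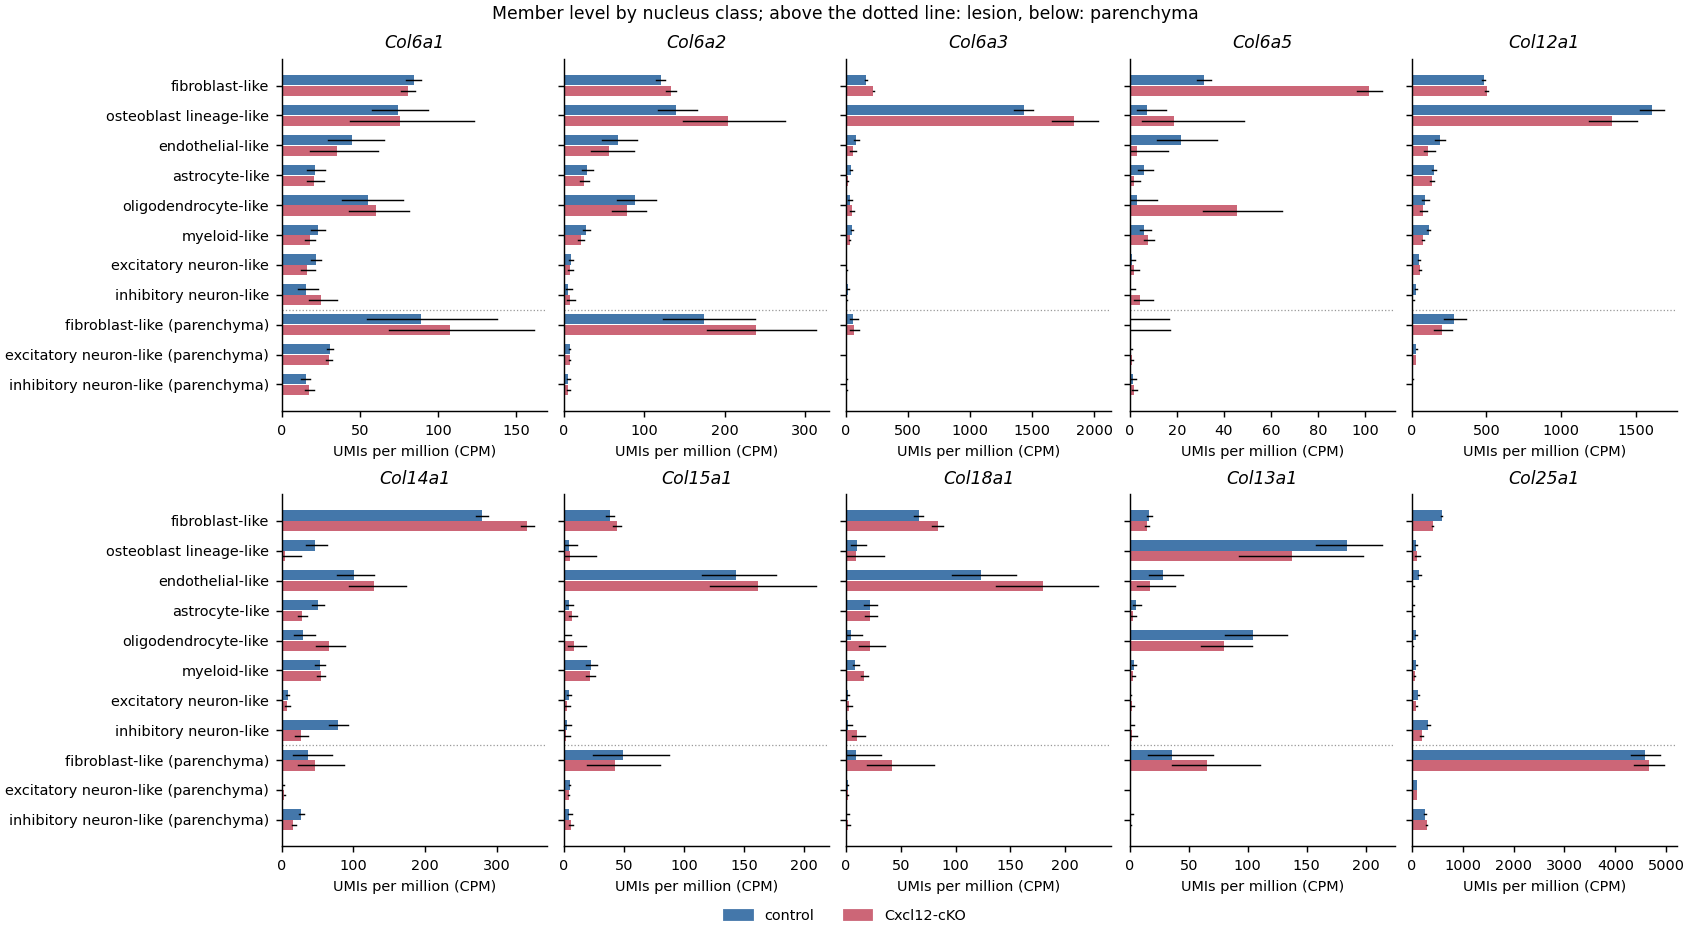
Level of each gene (CPM, horizontal axis) by nucleus class (vertical axis; T cell-like nuclei are not drawn) in the control and Cxcl12-cKO libraries; bars are class sums and black lines exact Poisson intervals. Col6a3 and Col12a1 reached their highest lesional levels in osteoblast lineage-like nuclei (1432 and 1605 CPM in the control library), Col15a1 and Col18a1 in endothelial-like nuclei, and Col25a1 was at 4585 CPM in parenchymal fibroblast-like nuclei.

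The long chain of type VI collagen was the most class-dependent of the type VI genes. Col6a3 was at 162 CPM (156 to 169) and 221 CPM (213 to 228) in lesional fibroblast-like nuclei of the control and Cxcl12-cKO libraries, but at 1432 and 1842 CPM in osteoblast lineage-like nuclei. Those nuclei numbered 348 and 83, so this class itself differed in size between the libraries. Col6a1 did not share the difference between the classes, with 84.4 and 80.9 CPM in fibroblast-like and 74.2 and 76.0 CPM in osteoblast lineage-like nuclei. Col6a2 was at 120 and 133 CPM in the former and at 140 and 204 CPM in the latter.

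Because these 3 chains are counted in the same nuclei, their split is a description of chain usage that does not depend on total depth. Of all Col6a1, Col6a2 and Col6a3 UMIs, those of Col6a3 made up 44.2% (42.9 to 45.6%) in lesional fibroblast-like nuclei labelled control and 50.7% (49.5 to 52.0%) in those labelled Cxcl12-cKO. In osteoblast lineage-like nuclei the share was 87.0% and 86.8%. At the other end, excitatory neuron-like nuclei of the parenchyma held mostly Col6a1, with 78.3% and 77.3% of the 3 chains, and Col6a3 made up 4.19% (3.25 to 5.31%) and 5.08% (4.02 to 6.32%). Parenchymal fibroblast-like nuclei also had few Col6a3 UMIs, 18.1% (9.98 to 28.9%) and 14.9% (8.20 to 24.2%), on 72 and 87 UMIs of the 3 chains. The intervals for parenchymal and lesional fibroblast-like nuclei did not overlap in either library, but the regions differed in cluster makeup. Parenchymal nuclei lay mainly in a Slc47a2-led cluster (30 and 27) and a Slc6a20a-led cluster (21 and 21). An Eln-led cluster, with lesional Col6a3 at 322 and 385 CPM, was nearly absent there. In the Slc47a2-led cluster Col6a3 was at 29.1 and 32.4 CPM in the lesion and 33.4 and 38.3 CPM in the parenchyma. In the Slc6a20a-led cluster it was at 107 and 103 CPM and at 108 and 97.2 CPM. The part of makeup was not tested. The percentages are shares of 3′ UMIs, not of protein chains, and the genes were not scaled by length.

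**Figure D2:**
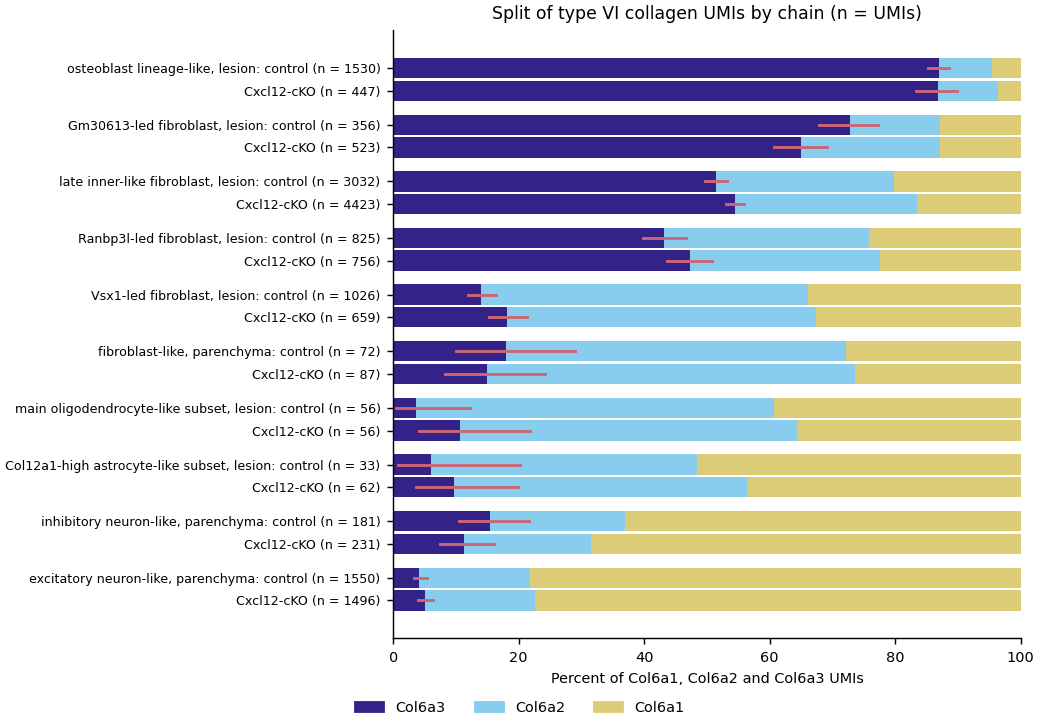
Percent of Col6a1, Col6a2 and Col6a3 UMIs (horizontal axis) held by each of these 3 chains, by class, region, fibroblast subcluster and library (vertical axis, with the number of UMIs); lines give the exact 95% interval of the Col6a3 share. The Col6a3 share ran from 4.19% in parenchymal excitatory neuron-like nuclei to 87.0% in osteoblast lineage-like nuclei of the control library.

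The remaining type VI gene and the fibril-associated genes did not share a class. Col6a5 was at 31.3 CPM (28.5 to 34.4) in lesional fibroblast-like nuclei labelled control and at 102 CPM (96.7 to 107) in those labelled Cxcl12-cKO, and had no UMI in the 51 and 50 parenchymal fibroblast-like nuclei, where 3 UMIs would be 13.4 and 14.1 CPM. In the cilia-bearing ependymal-like class it had 0 UMIs in 10 control nuclei and 22 UMIs in 21 nuclei labelled Cxcl12-cKO. Lesional fibroblast-like nuclei held Col12a1 at 481 and 501 CPM, against 1605 and 1339 CPM in osteoblast lineage-like nuclei and 282 and 202 CPM in parenchymal fibroblast-like nuclei. In the Slc47a2-led cluster Col12a1 was at 216 and 237 CPM in the lesion and 294 and 199 CPM in the parenchyma. In the Slc6a20a-led cluster it was at 171 and 159 CPM and at 256 and 111 CPM. The order of regions for Col12a1 was not tested at like makeup. Col14a1 differed from its relative, with 280 and 343 CPM in fibroblast-like nuclei of the lesion but 46.3 and 4.75 CPM in osteoblast lineage-like nuclei, the latter on 1 UMI.

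Col15a1 and Col18a1 had their highest lesional class levels in vessel-associated nuclei. A Gm30613-led fibroblast subcluster, described below, lay above these class levels (Col15a1 359 and 253 CPM, Col18a1 287 and 284 CPM). In the endothelial-like class, with 207 and 105 nuclei, Col15a1 was at 143 and 162 CPM and Col18a1, whose product is the source of endostatin, at 123 and 179 CPM. Within this class 1 group of 61 and 34 nuclei, led by Plvap and Chrm2, held Col15a1 at 451 and 392 CPM and Col18a1 at 135 and 235 CPM. Endothelial-like nuclei with Slco1c1 and Cldn5, genes of the blood-brain barrier, held Col15a1 at 15.1 and 27.1 CPM. A further group of this class (61 and 37 nuclei) carried fibroblast genes, with 5 fibroblast markers (Col1a1, Col1a2, Dcn, Lum and Col3a1) summed at 108% and 70.1% of the fibroblast-like level, against 56.1% and 37.1% in the whole class. It held Col12a1 at 383 and 208 CPM, Col14a1 at 215 and 223 CPM and Col25a1 at 320.3 and 59.5 CPM, and Col15a1 at 66.4 and 52.1 CPM. The part of fibroblast RNA in the levels of this class was not tested. The barrier group had the lower Col15a1 level in each library. The mural-like group (23 and 10 nuclei) had Col15a1 at 166 and 375 CPM, with the same 5 markers at 54.9% and 44.9% of the fibroblast-like level. A group with the smooth muscle genes Acta2 and Myh11 (19 and 6 nuclei) had Col18a1 at 671 and 749 CPM but no Col15a1 UMI. The last values rest on 24 and 10 UMIs of Col18a1.

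Glial nuclei carried a few of these genes. In astrocyte-like nuclei of the lesion Col12a1 was at 146 and 133 CPM, against 13.8 and 6.57 CPM in the 56 and 58 astrocyte-like nuclei of the parenchyma, where it had 4 and 2 UMIs. In oligodendrocyte-like nuclei of the lesion Col13a1 was at 104 and 80.1 CPM, above its 16.3 and 14.6 CPM in fibroblast-like nuclei. Fibroblast RNA was also found in these classes: the summed level of the same 5 fibroblast markers was 19.9% and 10.5% of the fibroblast-like level in astrocyte-like nuclei and 22.1% and 16.4% in oligodendrocyte-like nuclei. After the classes were clustered again, an astrocyte-like group led by Mylk2 and Tnfsf11 (175 and 294 nuclei) had these markers at 6.17% and 4.19% of the fibroblast-like level and Col12a1 at 37.2% and 38.0% of it. Another group of the astrocyte-like class, led by Adap2 and Lama1 (106 and 77 nuclei), had the markers at 53.6% and 25.9%. It held Col12a1 at 287 and 85.4 CPM, and 37.7% and 41.6% of its nuclei had UMIs of both sexes. Its part in the class level was not tested. The Mylk2-led and Adap2-led groups were nearly absent from the parenchyma. In a Gm12239-led group found in both regions, Col12a1 was at 9.82 and 12.3 CPM in the lesion and 18.5 and 9.14 CPM in the parenchyma. In a 9630013A20Rik-led group it was at 59.1 and 104 CPM and at 9.36 and 0 CPM. These parenchymal values rest on at most 3 UMIs each. The part of makeup in the region difference of Col12a1 was not tested. The main oligodendrocyte-like group (150 and 157 nuclei) had the markers at 8.82% and 5.89%, with Col13a1 at 118 and 109 CPM, Col6a1 at 59.0 and 46.3 CPM and Col6a2 at 85.8 and 69.4 CPM. In lesional myeloid-like nuclei the markers stood at 25.7% and 18.6% of the fibroblast-like level, and 9 of the 10 genes lay between 12.6% and 28.9% in the control library. Col15a1 lay apart there, at 59.2% and 49.7%, with 22.5 and 22.0 CPM.

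Several of these genes were also found in neurons. Parenchymal inhibitory neuron-like nuclei held Col25a1 at 259 and 290 CPM and excitatory neuron-like nuclei at 101 and 102 CPM, with 1946 to 3987 UMIs behind each value. Within this inhibitory class, nuclei led by Frem1, Ndnf and Kit held Col25a1 at 1019.9 and 781 CPM and those led by Sst at 203 and 328 CPM. A group of the class led by Hhip and Slc17a6 held it at 425 and 487 CPM. That group had 3 of 5 excitatory neuron markers higher than the rest of the class, so its inhibitory identity is uncertain. The Frem1-led nuclei (62 and 70) also held Col14a1, at 224 and 91.1 CPM, against 27.2 and 16.2 CPM over the whole class. Among excitatory nuclei, Col25a1 was highest in those led by Oprk1 (335 and 248 CPM) and those led by Rorb (182 and 152 CPM), and lowest of the groups present in both libraries in those led by Lef1 (7.14 and 2.77 CPM).

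Col6a1 and Col12a1 marked other excitatory groups. Col6a1 was at 66.5 and 61.3 CPM in nuclei led by Syt6 and Foxp2, genes known from deep cortical layers, and at 54.5 and 59.2 CPM in those led by Il1rapl2 and Sema3e, against 1.38 and 3.05 CPM in the Rorb-led nuclei. Col12a1 was at 198 and 177 CPM in nuclei led by Nxph1 and Slc17a8 and at 128 and 90.0 CPM in the Syt6-led nuclei, against 30.02 and 26.9 CPM in all excitatory neuron-like nuclei of the parenchyma. Each of these contrasts was found in both libraries. The groups were formed without the 10 genes, but groups of nuclei against each other are no test.

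Between regions, 4 of 10 genes (Col6a3, Col6a5, Col12a1 and Col14a1) were at least 0.5 higher on the log2 scale in lesional than in parenchymal excitatory neuron-like nuclei in both libraries, where 4.31% of 16941 genes were. Col12a1 was at 50.0 and 53.0 CPM in the lesion against 30.02 and 26.9 CPM in the parenchyma of the control and Cxcl12-cKO libraries. The log2 ratios were 0.74 (0.57 to 0.90) and 0.98 (0.73 to 1.21). Col6a3 was at 7.24 and 4.79 CPM against 1.65 and 1.99 CPM, log2 ratios of 2.13 and 1.30, and Col14a1 at 7.90 and 7.66 CPM against 2.19 and 3.14 CPM, ratios of 1.86 and 1.31. Col6a5 had 8 and 6 lesional UMIs, and its intervals included 0. Without nuclei carrying UMIs of both sexes the count was 1 of 10. Fibroblast markers stood at 3.61% and 2.47% of the fibroblast-like level in these lesional neurons, and their part in the result was not tested. Col6a1 went the other way, from 30.9 and 30.3 CPM in the parenchyma to 21.6 and 16.3 CPM in the lesion, with log2 ratios of -0.51 (-0.76 to -0.28) and -0.88 (-1.33 to -0.49). The excitatory groups present in the lesion and the parenchyma were not matched.

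Fibroblast markers were lower in parenchymal than in lesional fibroblast-like nuclei. With both libraries summed, Col1a1, Col3a1 and Dcn were at 188, 162 and 146 CPM against 676, 785 and 501 CPM. Col1a1 was also below its 201 CPM in the other lesional nuclei, so the identity of the parenchymal nuclei is less sure. Parenchymal fibroblast-like nuclei, although few, stood apart by Col25a1. They held it at 4585 CPM (4309 to 4874) in the control library and 4660 CPM (4375 to 4959) in the Cxcl12-cKO library, against 588 CPM (576 to 601) and 411 CPM (401 to 422) in the lesion. A Col25a1 UMI was found in 72.5% and 70.0% of these nuclei, whose median depth was 4124 and 4198 UMIs. The shares were 31.4% and 24.7% in lesional fibroblast-like nuclei (median depth 3066 and 3100.5) and 6.86% and 6.11% in lesional myeloid-like nuclei (median depth 2172 and 2376). After each nucleus was thinned to 1000 UMIs the shares were 62.7% and 69.4% in the parenchyma, 22.7% and 17.0% in the lesional fibroblast-like nuclei and 3.78% and 3.16% in myeloid-like nuclei. Thinning left out 0 and 1, 106 and 97, and 99 and 121 nuclei. The Eln-led cluster, with lesional Col25a1 at 33.3 and 30.7 CPM, was nearly absent in the parenchyma. In the Slc47a2-led cluster Col25a1 was at 824 and 756 CPM in the lesion and 5384 and 6853 CPM in the parenchyma. In the Slc6a20a-led cluster it was at 954 and 729 CPM and at 2976 and 1388 CPM. There the thinned shares were 34.9% and 29.4% in the lesion and 42.9% and 35.0% in the parenchyma, with overlapping intervals. The part of makeup was not tested. Col6a5 had 0 UMIs in the parenchymal fibroblast-like nuclei. However, the Eln-led cluster, with lesional Col6a5 at 59.5 and 180 CPM, was nearly absent among them. In the Slc47a2-led cluster Col6a5 was at 28.6 and 12.7 CPM in the lesion, and 3 parenchymal UMIs would be 20.1 and 23.0 CPM. In the Slc6a20a-led cluster it was at 5.77 and 45.9 CPM, and 3 parenchymal UMIs would be 40.4 and 41.6 CPM. The order of regions for Col6a5 was not tested at like makeup.

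Lesional fibroblast-like nuclei fell into 4 subclusters, formed without the 10 genes, and the gene families divided between them. Late inner-like nuclei, named after Cdh18, Fgf13 and Sema3c, made up 31.6% and 38.7% of the lesional fibroblast-like nuclei of the control and Cxcl12-cKO libraries. A second subcluster, led by Vsx1, made up 27.2% and 19.1%, and it had 3 of 5 markers of the dural border and arachnoid barrier but took another name when the 10 genes were used for clustering. The remaining pair were leptomeningeal-like, with 31.9% and 30.2% in a Ranbp3l-led subcluster and 9.27% and 11.98% in a Gm30613-led subcluster with Lama1, a basement membrane laminin, at 966 CPM. Of the barrier markers only Slc47a1 was highest in Vsx1-led nuclei (1452 CPM, against 336 CPM in Ranbp3l-led nuclei). Dpp4 (39.9 against 136 CPM), Cldn11 (102 against 198), Cdh1 (47.2 against 76.1) and Klf5 (158 against 210) were higher in Ranbp3l-led nuclei. The barrier name of the Vsx1-led nuclei is thus weak. All 4 type VI genes and both fibril-associated genes, 6 of 10 members, were at least 0.5 higher on the log2 scale in late inner-like nuclei than in the other subclusters in both libraries, where 9.04% of 14309 genes were. The other 4, both multiplexins and both transmembrane collagens, were at least 0.5 lower in both libraries, where 8.99% of genes were.

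The fibril-associated and long type VI chains differed more towards late inner-like nuclei than the short ones. Col12a1 was at 1068 and 924 CPM in these nuclei of the control and Cxcl12-cKO libraries and at 210 and 198 CPM in the rest. Col14a1, which regulates fibril diameter, was at 654 and 652 CPM against 106 and 122 CPM, and Col6a3 at 345 and 395 CPM against 77.8 and 95.8 CPM. With both libraries summed, the log2 ratios were 2.27 (2.22 to 2.32) for Col12a1, 2.52 (2.45 to 2.60) for Col14a1, 2.12 (2.03 to 2.20) for Col6a3 and 2.88 (2.71 to 3.05) for Col6a5. They were 1.15 (1.03 to 1.27) for Col6a1 and 1.27 (1.18 to 1.37) for Col6a2. All 4 mice had each of these 6 genes highest in late inner-like nuclei.

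The Vsx1-led and Gm30613-led subclusters differed in which chains they held. In Vsx1-led nuclei Col6a3 was at 30.5 and 39.0 CPM, its lowest of the 4 subclusters, while Col6a2 was at 113 and 105 CPM, second to late inner-like nuclei. The Col6a3 share of the 3 chains was thus 14.0% (11.97 to 16.3%) and 18.2% (15.3 to 21.4%) there, against 51.4% (49.6 to 53.2%) and 54.5% (53.0 to 56.0%) in late inner-like nuclei. In Gm30613-led nuclei it was 72.8% (67.8 to 77.3%) and 65.0% (60.8 to 69.1%), with Col6a1 at only 38.5 and 42.9 CPM. The 3 intervals did not overlap in either library.

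Basement membrane and membrane-bound collagens had the Gm30613-led nuclei in common, apart from Col25a1. Col15a1 was at 359 and 253 CPM there and at no more than 13.3 and 27.1 CPM in the other 3 subclusters. Col13a1, a transmembrane collagen of adhesion sites, was at 143 and 99.9 CPM there and at most 7.29 and 8.75 CPM elsewhere. Col18a1 was at 287 and 284 CPM there, followed by 73.7 and 113 CPM in Ranbp3l-led nuclei. Col25a1 instead was at 1120 and 928 CPM in Ranbp3l-led and 801 and 700 CPM in Vsx1-led nuclei, against 48.3 and 33.8 CPM in late inner-like and 80.4 and 28.2 CPM in Gm30613-led nuclei.

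**Figure D3:**
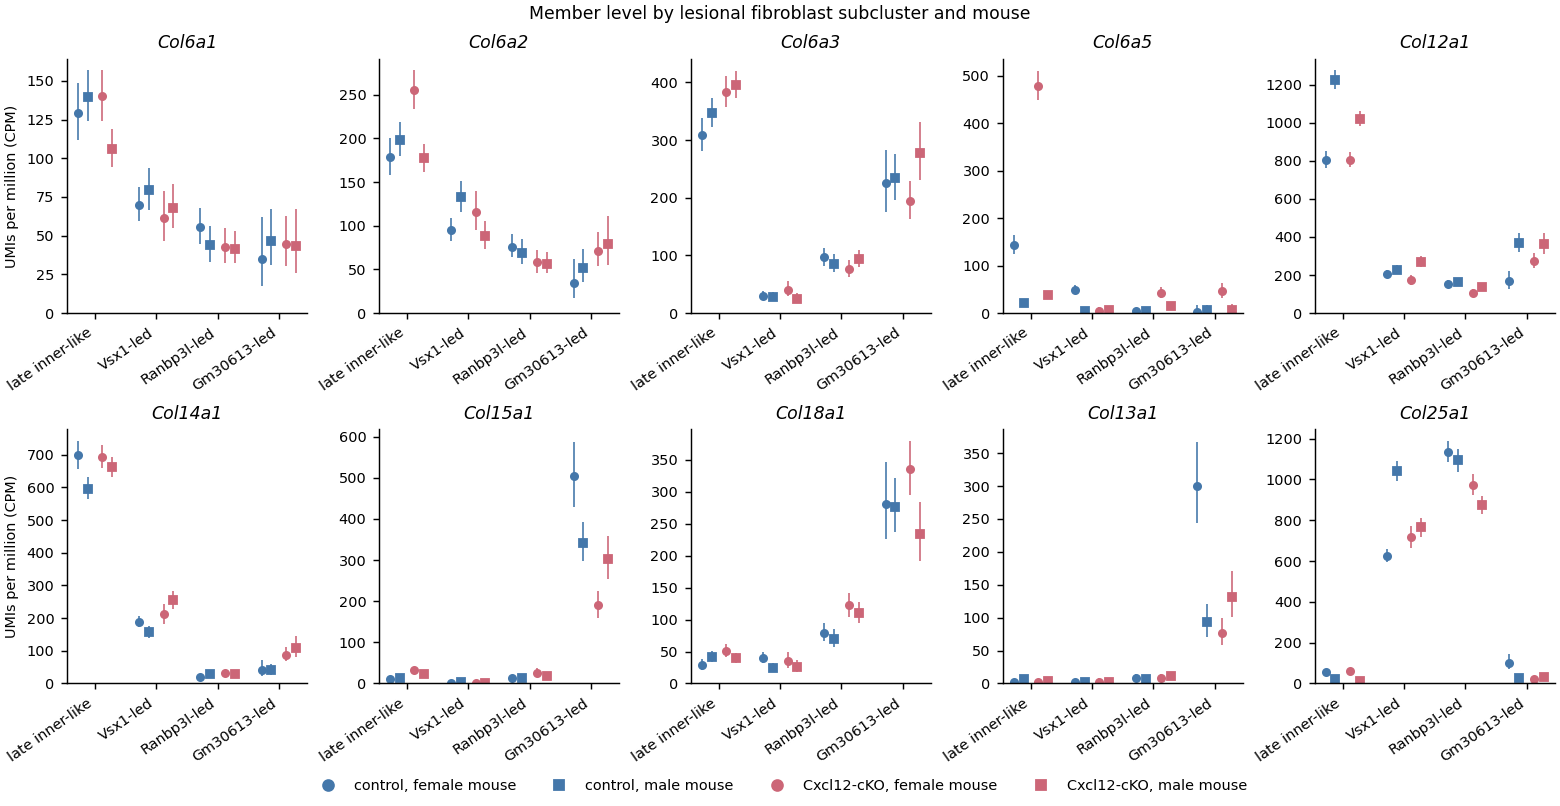
Level of each gene (CPM, vertical axis) in the 4 lesional fibroblast subclusters (horizontal axis), by library and by mouse; points are sums over the nuclei of a mouse and error bars exact Poisson intervals. In all 4 mice Col12a1, Col14a1 and Col6a3 were highest in late inner-like nuclei, Col13a1, Col15a1 and Col18a1 in Gm30613-led nuclei, and Col6a5 in late inner-like nuclei of the female Cxcl12-cKO mouse reached 479 CPM.

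The comparison of genotypes asked how fibroblasts of the lesion differed when Cre and floxed Cxcl12 were combined. Of the 10 genes, 1 (Col6a5) was at least 0.5 higher on the log2 scale in lesional fibroblast-like nuclei labelled Cxcl12-cKO, where 4.68% of 14309 genes with at least 50 UMIs were higher by as much. A further 1 (Col25a1) was at least 0.5 lower, where 3.65% of genes were. The other 8 had log2 ratios from -0.16 to 0.44, and the median over all genes was 0.0021. By family, the median log2 ratio was 0.30 for the type VI genes, 0.18 for the fibril-associated genes, 0.28 for the multiplexins and -0.34 for the transmembrane collagens. With 1 library in each group the size of these differences could not be set against replicate spread, and the mice within a library are given instead, told apart by Xist and Y-linked UMIs. Sex and mouse cannot be told apart here.

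Among the type VI genes, Col6a1 was at 79.4, 89.3, 85.3 and 76.0 CPM in the female control, male control, female Cxcl12-cKO and male Cxcl12-cKO mouse. The groups overlapped, and the log2 ratio between the libraries was -0.06 (-0.18 to 0.06). Col6a2 was at 108, 133, 150 and 118 CPM in the same order, so the female mouse was the lower in the control and the higher in the Cxcl12-cKO library. Its log2 ratio of 0.15 (0.05 to 0.24) was 0.47 (0.31 to 0.62) between the female mice and -0.17 (-0.32 to -0.02) between the male mice. Col6a3 was at 133, 177, 210 and 225 CPM, with both Cxcl12-cKO mice above both control mice. Its log2 ratio was 0.44 (0.36 to 0.52), but 0.02 once the osteoblast lineage-like nuclei, which held much Col6a3 and numbered 348 and 83, were added to the class. Within the late inner-like subcluster the Col6a3 ratio was 0.20 (0.10 to 0.29), where that subcluster held 31.6% of control and 38.7% of Cxcl12-cKO nuclei.

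The fibril-associated genes did not behave as a pair. Col12a1 was at 346, 586, 425 and 574 CPM in the female control, male control, female Cxcl12-cKO and male Cxcl12-cKO mouse, so both male mice lay above both female mice. Its log2 ratio between the libraries was 0.06 (0.01 to 0.11), and within late inner-like nuclei it was -0.21 (-0.26 to -0.15). Col14a1 was at 265, 272, 339 and 364 CPM, and the Cxcl12-cKO mice did not overlap the control mice. Its log2 ratio was 0.29 (0.23 to 0.36), but within late inner-like nuclei the levels were 654 and 652 CPM and the ratio was -0.0036 (-0.073 to 0.066). In Vsx1-led nuclei Col14a1 was at 177 and 248 CPM, a ratio of 0.49 (0.35 to 0.64).

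The multiplexins differed between mice. Col15a1 was at 34.1, 44.2, 47.5 and 36.7 CPM in the same order of mice. The ratio was 0.48 (0.20 to 0.75) between the female mice and -0.27 (-0.53 to -0.0022) between the male mice. Col15a1 was higher in late inner-like nuclei labelled Cxcl12-cKO (12.4 and 27.1 CPM) and lower in Gm30613-led nuclei (359 and 253 CPM). Gm30613-led nuclei held 78.8% and 61.0% of its UMIs. From control to Cxcl12-cKO, their share of nuclei went from 6.96% to 15.9% in the female and from 11.1% to 8.06% in the male mice. The part of this makeup in the Col15a1 ratios of the pairs was not tested. Col18a1 was at 61.4, 67.6, 109 and 69.6 CPM, so the female Cxcl12-cKO mouse stood above the other 3. Its log2 ratio was 0.33 (0.21 to 0.46), with 0.82 (0.63 to 1.02) between the female and 0.04 (-0.16 to 0.24) between the male mice. The pattern of opposite directions in the female and male pairs, each with an interval off 0, was found for 2 of 10 members (Col6a2 and Col15a1) and for 1.65% of all genes. The same 2 had a female over male ratio of opposite sign in the libraries, as 2.86% of genes did. Whether the pairs differed was not tested.

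The transmembrane collagens were the only family with both genes below 0. Col25a1 was at 596, 581, 421 and 410 CPM in the female control, male control, female Cxcl12-cKO and male Cxcl12-cKO mouse. The mice of each library lay close together and the groups did not overlap, and the log2 ratio was -0.52 (-0.56 to -0.47), with -0.50 for each pair of mice of the same sex. The shares of nuclei in the subclusters also differed. Vsx1-led nuclei, which hold much Col25a1, were 27.2% of control and 19.1% of Cxcl12-cKO nuclei. Ranbp3l-led nuclei, which had the highest Col25a1 level, were 31.9% and 30.2%. The part of this makeup in the Col25a1 ratio was not tested. With the subclusters weighted alike in both libraries the ratio was -0.26, and it was -0.19 (-0.27 to -0.12) within Vsx1-led and -0.27 (-0.33 to -0.21) within Ranbp3l-led nuclei. In the subclusters with little Col25a1 it was -0.51 (-0.80 to -0.23) within late inner-like and -1.50 (-2.06 to -0.98) within Gm30613-led nuclei. Col25a1 UMIs were concentrated in few nuclei, 266 and 199 nuclei with at least 10 UMIs holding 59.8% and 60.5% of them. Col13a1 was at 20.1, 14.6, 14.6 and 14.6 CPM on 233 and 214 UMIs, and its ratio over all nuclei, -0.16 (-0.43 to 0.12), lay within the counting error. Its ratio was -0.46 (-0.90 to -0.03) between the female mice, -0.0059 (-0.45 to 0.44) between the male mice and -0.52 (-0.84 to -0.20) within Gm30613-led nuclei, which held 73.4% and 72.9% of its UMIs.

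Both Cxcl12-cKO mice lay above both control mice for 3 of 10 members (Col6a3, Col14a1 and Col18a1), a pattern found for 20.8% of all genes, and below them for 1 (Col25a1), against 20.5% of genes. These shares of the members are read against that background only.

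**Figure D4:**
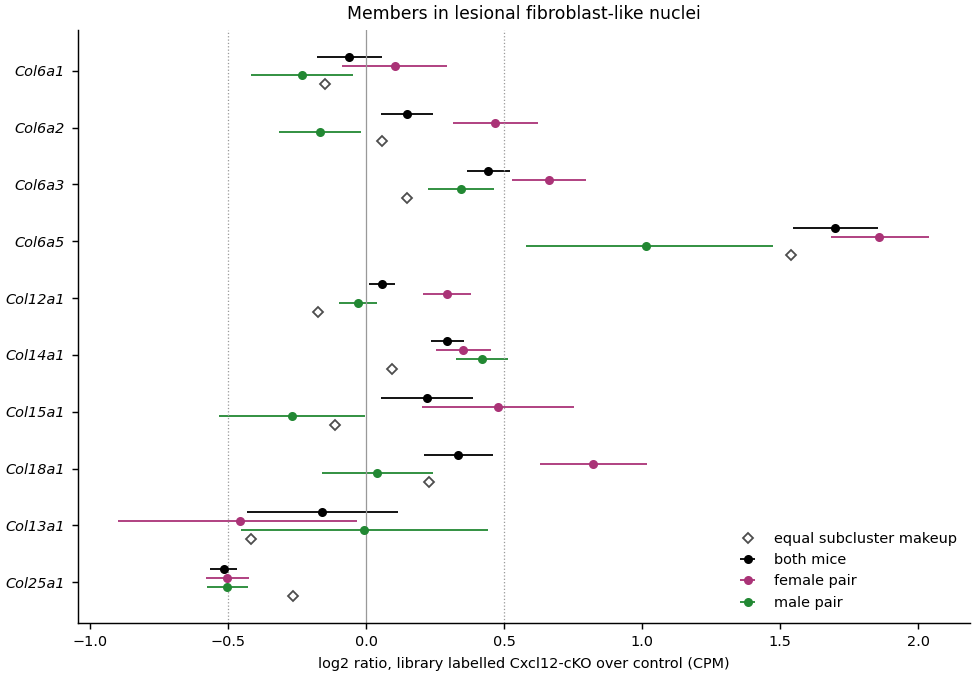
Log2 ratio of each gene in lesional fibroblast-like nuclei, library labelled Cxcl12-cKO over library labelled control (horizontal axis), for all nuclei, the female mice and the male mice, with 95% counting intervals; open diamonds give the ratio with the subclusters weighted alike. Col6a5 was at 1.70 for all nuclei, 1.86 for the female and 1.01 for the male mice, Col25a1 at -0.52, and the Col6a2 and Col15a1 ratios of the female and male mice lay on opposite sides of 0.

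Col6a5 was the member with the largest difference between the libraries and also between mice. It had 447 UMIs (31.3 CPM) in lesional fibroblast-like nuclei labelled control and 1488 UMIs (102 CPM) in the other library. The log2 ratio was 1.70 (1.55 to 1.86). By mouse it was at 58.3 CPM in the female control, 11.1 CPM in the male control, 212 CPM in the female Cxcl12-cKO and 22.5 CPM in the male Cxcl12-cKO mouse. The male Cxcl12-cKO mouse was below the female control mouse, so the groups overlapped. The female mouse was higher in each library, by 2.38 (2.00 to 2.81) and 3.23 (2.98 to 3.50) on the log2 scale. A gap of at least 0.5 in this direction in both libraries was found for 1 of 10 members and 1.97% of genes.

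Over all lesional fibroblast-like nuclei the shares with Col6a5 had overlapping intervals in the libraries. A Col6a5 UMI was found in 189 of 4151 control nuclei (4.55%, 3.94 to 5.23%) and 176 of 4074 Cxcl12-cKO nuclei (4.32%, 3.72 to 4.99%), or 2.18% and 2.39% after thinning, against 0.837% and 0.997% of lesional myeloid-like nuclei, or 0.236% and 0.549% after thinning. The subclusters differed in opposite directions, with 6.02% (4.70 to 7.57%) and 2.83% (1.78 to 4.25%) of Vsx1-led nuclei but 0.754% (0.362 to 1.38%) and 2.76% (1.92 to 3.84%) of Ranbp3l-led nuclei. By mouse the share was 7.83% in the female control, 2.15% in the male control, 5.79% in the female Cxcl12-cKO and 3.21% in the male Cxcl12-cKO mouse. The number of UMIs in the nuclei with Col6a5 was 2.37 and 8.45 on average, with a median of 1 in each library. The highest nucleus held 24 UMIs in the control and 234 UMIs in the Cxcl12-cKO library. Nuclei with at least 10 Col6a5 UMIs numbered 4 in the control library, with 13.4% of its Col6a5 UMIs, and 34 in the Cxcl12-cKO library, with 82.2%. Of the 34, 24 nuclei, 20 of them late inner-like and with 970 UMIs in all, were assigned to the female mouse, 3 to the male mouse, 6 had UMIs of both sexes and 1 had neither. Without the 10 nuclei of most Col6a5 UMIs in each library the log2 ratio was 0.94 (0.75 to 1.13), on 336 and 660 UMIs. Col6a3 had no such nuclei of very high count, with at most 27 and 19 UMIs in 1 nucleus.

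By subcluster, Col6a5 stood at 61.7 and 211 CPM in late inner-like nuclei, 30.9 and 14.0 CPM in Vsx1-led, 3.91 and 23.9 CPM in Ranbp3l-led and 5.86 and 40.3 CPM in Gm30613-led nuclei of the control and Cxcl12-cKO libraries. The direction was thus not the same in all subclusters, with log2 ratios of 1.77 (1.59 to 1.97), -1.14 (-1.67 to -0.65), 2.57 (1.82 to 3.51) and 2.69 (1.66 to 4.15). In late inner-like nuclei the 4 mice were at 143, 21.1, 479 and 37.7 CPM in the female control, male control, female Cxcl12-cKO and male Cxcl12-cKO mouse. Here too the male Cxcl12-cKO mouse was below the female control mouse. In Vsx1-led nuclei 114 of the control UMIs came from the female mouse and 9 from the male mouse. Outside fibroblast-like nuclei, oligodendrocyte-like nuclei labelled Cxcl12-cKO had 32 Col6a5 UMIs, of which 31 lay in 1 nucleus with UMIs of both sexes.

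Genes that process, bind or resemble these collagens were examined from 4 lists with 88 genes, 77 of them with at least 50 UMIs in lesional fibroblast-like nuclei, and 6 were at least 0.5 higher and 5 at least 0.5 lower in the Cxcl12-cKO library, against 4.68% and 3.65% of all genes. Of the 12 other non-fibrillar collagens with enough UMIs 2 were higher and 2 lower, with a median of -0.08. Col7a1, the anchoring fibril collagen, was at 24.3 and 54.6 CPM (log2 ratio 1.16, 0.98 to 1.35), and Col6a6, another alternative long chain of type VI collagen, at 2.87 and 6.36 CPM (1.14, 0.60 to 1.71). Both were higher in the female and in the male pair. Col10a1 (-0.61) and Col22a1 (-0.57) had intervals that included 0. By mouse Col10a1 was at 0.39 between the female and 0.18 between the male mice, against its pooled direction, and Col22a1 at 1.27 and -2.05. The most abundant of the list, Col8a1, Col23a1 and Col16a1, had ratios of 0.06, -0.35 and -0.10.

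The machinery of collagen synthesis had a median log2 ratio of 0.0029, with 1 higher and 1 lower of 31 genes. Adamts14, a procollagen N-proteinase, was at 7.50 and 15.0 CPM (0.99, 0.66 to 1.35) and its relative Adamts3 at 88.03 and 60.1 CPM (-0.55, -0.68 to -0.42). Serpinh1, the collagen chaperone, had a ratio of -0.35, and the most abundant genes Tll1, Adamts2 and Plod2 had -0.08, -0.09 and 0.14. Of 16 receptors 2 were higher and 0 lower (median -0.0057). The inhibitory collagen receptor Lair1 was at 2.87 and 4.38 CPM (0.60, 0.02 to 1.21), on 41 and 64 UMIs. With both libraries summed, the myeloid-list marker Ptprc was at 10.9 CPM in lesional fibroblast-like nuclei, and the part of immune RNA was not tested. Cspg4, a proteoglycan that binds type VI collagen, was at 13.1 and 21.7 CPM (0.73, 0.47 to 1.00). Antxr1, which also binds type VI collagen, stood at 0.07, Ptprd at -0.13, Mrc2 at 0.0026 and Itga10 at -0.38. Of 18 matrix binding partners 1 was higher and 2 lower (median 0.01). Fbln2 was at 8.69 and 14.8 CPM (0.76), the binding partner Comp at 8.20 and 4.58 CPM (-0.84) and Tnc, an adhesion-modulating matrix glycoprotein, at 130 and 76.0 CPM (-0.77, -0.88 to -0.66). Fn1, Dcn and Fbln1 had the most UMIs, with ratios of 0.03, -0.17 and 0.07.

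Genes most like each member were sought over 34 sums of class, region and library with at least 50000 UMIs, by the Pearson correlation of log2(CPM + 1). These sums share libraries and differ in depth, so the values are a description with no test. Col12a1 was most like the fibrillar collagen genes Col5a2 (r = 0.91) and Col5a1 (0.90) and Bicc1 (0.91), and Col6a3 most like Ism1 (0.92), Fndc3b (0.91) and Col3a1 (0.91). Col6a1 and Col6a2 were close to each other (0.82) but each closer to other genes, Col6a1 to Cemip (0.90), Cacna1g (0.88) and Smoc2 (0.85) and Col6a2 to CJ186046Rik (0.90), Lmx1b (0.90) and Zfhx4 (0.89). Col18a1 followed Il1r1 (0.90) and Zic2 (0.88), and Col14a1 followed Cyth3 (0.84), Fam193a (0.82) and Pbx3 (0.81). For Col15a1 the closest were Oas2 (0.80), Myzap (0.79) and Poglut3 (0.76), for Col13a1 Farp2 (0.80), Fmod (0.79) and Naaladl2 (0.76), and for Col25a1 Slc16a11 (0.82), Sema3a (0.79) and Rspo3 (0.77). Col6a5 had the weakest likeness, with Kcnj15, Cfap77 and Rspry1 at 0.74 to 0.75, and its correlation with Col6a1 was 0.43.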

How the data were processed

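Nuclei were counted per gene in 4 matrices, from 1 library each of control and Cxcl12-cKO mice, split by sample tag into lesion and parenchyma. Per the labels and the study's methods, the deposited UMI counts were made with Cell Ranger 9.0.0 on GRCm39 from 10x Chromium 3′ libraries, with no normalization, so reads of 1 molecule are counted once. Depth was 34769874 and 31995274 UMIs in the lesion matrices and 62701074 and 62749811 UMIs in the parenchyma matrices. Each of the other steps was computed here from the counts.

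Barcodes were kept within the 2.5% limits of UMIs and genes at each end (757 to 36244 UMIs, 584 to 6419 genes) and at no more than 8.75% mitochondrial UMIs. Kept nuclei were clustered with Scanpy 1.11.5 on 3000 variable genes without the 10 collagens (30 components, 20 neighbours, Leiden resolution 0.25), and clusters were named from marker lists that needed at least 3 higher markers. Subclusters and splits were formed in the same way on 2000 genes, and the splits of neurons, glia and vessels were chosen after seeing the data. Nuclei were assigned to a mouse by Xist against Y-linked UMIs. Scrublet called 0, 1, 283 and 3 barcodes, which is no working call in 3 of the 4 matrices, so its calls removed no nucleus, and removing the 10% of highest score was an alternative.

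Levels are summed UMIs in the usual CPM scaling with exact Poisson intervals, shares carry Clopper-Pearson intervals, and log2 ratios use 0.5 added to each count with 95% intervals. A gene was counted as higher or lower from a log2 ratio of 0.5, with at least 50 UMIs. With 1 library per genotype no test or p-value was computed, and mice told apart within a library were not used as replicates in a test. Named genes are the 10 members, in each partner list the 3 genes of most UMIs and the 3 of largest absolute log2 ratio, and the 3 genes most like each member; Col22a1 was named after its values were seen. A gene that this rule names is not reported here. The members and lists were chosen with earlier results of these data known. Scripts were tested on simulated counts. TMM scaling was computed with edgeR 4.0.16 as an alternative.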

Additional observations from a re-analysis of the deposited data

Results flagged for a closer look

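Col6a2 and Col15a1 were the members whose ratio between the libraries went in opposite directions in the mice of each sex. In lesional fibroblast-like nuclei the log2 ratio of Col6a2, library labelled Cxcl12-cKO over control, was 0.47 between the female mice and -0.17 between the male mice. That of Col15a1 was 0.48 between the female mice and -0.27 between the male mice. All 4 counting intervals lay off 0, but with 1 mouse of each sex per library the difference between the pairs was not tested, and 1.65% of all genes had the same pattern. The share of Gm30613-led nuclei, which held most Col15a1 UMIs, also differed in opposite directions. It went from 6.96% to 15.9% between the female and from 11.1% to 8.06% between the male mice, and its part was not tested.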

How the results depend on the processing

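No paired analysis was possible because the labels give each genotype 1 library and no shared replicate number; values for the female and the male pair of mice, told apart by sex-linked UMIs, stand in the report and entered no test. Of 13 alternatives, all 13 kept the sign of the log2 ratio for Col6a3 (0.02 with the osteoblast lineage-like cluster added to 0.66 in the female mice), Col6a5 (1.01 to 1.86), Col14a1 (0.09 to 0.42), Col18a1 (0.04 to 0.82), Col13a1 (-0.70 to -0.01) and Col25a1 (-0.65 to -0.26), while 12 did for Col6a1 and for Col6a2, 11 for Col15a1 and 8 for Col12a1. Col25a1 was at -0.65 with no nucleus filter and classes by own markers, at -0.65 with kept nuclei classed by own markers, at -0.45 without nuclei of both sexes, at -0.45 with the osteoblast lineage-like cluster added, at -0.42 as a mean per nucleus and at -0.26 with equal subcluster makeup. Col6a5 was at 1.86 in the female mice, 1.01 in the male mice, 1.54 with equal subcluster makeup and, as an alternative added after seeing the data, 0.94 without the 10 nuclei of most UMIs in each library. The count of members at least 0.5 higher went from 1 to 2 with no nucleus filter and to 3 in the female mice. The count lower went from 1 to 2 with no nucleus filter or with classes by own markers, and to 0 without nuclei of both sexes, as a mean per nucleus and with equal subcluster makeup. Partner genes higher went from 6 to 10 with a minimum of 10 UMIs and to 10 in the female mice, and those lower from 5 to 3 in the female mice. In excitatory neuron-like nuclei the count of members higher in the lesion went from 4 to 1 without nuclei of both sexes, where Col14a1 of the Cxcl12-cKO library reversed to -0.65. The cause of these differences was not tested. Over all alternatives, 61 summary values and 171 single values stayed within their counting error or count limit, while 21 summary values, those above, and 84 single values moved past it. The depth of single nuclei limits the low genes, since Col13a1 and Col15a1 had 214 to 648 UMIs per library.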
